A study of Mus musculus with 12 samples.

Results

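Metallothioneins are small cysteine-rich proteins that hold zinc and copper in the cell, and zinc transporters move zinc across membranes. The genes described here are 7 of them, chosen by symbol: the metallothionein genes Mt1, Mt2 and Mt4, the ZnT genes Slc30a1 and Slc30a10, and the ZIP genes Slc39a4 and Slc39a14. All 7 were measured, each by 1 probe set, among 11861 genes in all. They were put together with their levels on these arrays already known, so every adjusted p given for one of them describes the array data and lends no independent support to the choice. The rule took the brightest probe set of a symbol, which did not come into play for these 7.

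RNA was measured on 12 expression arrays of spheroids, the compact aggregates that hepatocytes form when they cannot attach to the dish. The cells came from C57BL/6 mice, an inbred strain, as 4 frozen preparations, 2 male and 2 female, and the labels give no age, altered allele or added agent. Each preparation was a pool of 3 animals, so that 12 mice were used and single mice cannot be seen. Every preparation was sampled after 1, 7 and 14 days of culture, which gives 6 groups of sex and day with 2 arrays each. The preparations are called male 1, male 2, female 1 and female 2. Values are the deposited log2 levels, on which a difference of 1 is a doubling, and a level of one gene cannot be set against that of another. Array medians lay between 7.47 and 7.53, and arrays correlated across genes at r of 0.946 to 0.99. All 8 hepatocyte markers were measured, and their mean level lay between 10.74 and 11.47 on every array, while Cyp2e1, one of them, a pericentral cytochrome P450, averaged 4.41 at day 14 and 5.57 at day 1 (adjusted p = 0.301).

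In liver, the metallothioneins MT1 and MT2 buffer zinc, bind cadmium and copper, and are induced by metals, glucocorticoids and interleukin 6. Metals act through MTF1, a zinc finger factor that binds metal response elements in promoters, and Slc30a1 is another of its known targets. MT3 is known mainly from brain and MT4 from stratified squamous epithelium. ZnT proteins, encoded by Slc30a genes, move zinc out of the cytosol, and ZIP proteins, encoded by Slc39a genes, move it in.

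The windows before the starts of 4 of these genes are shown because metal response elements lie in promoters. Sequences are RefSeq's on GRCm38.p6, 5′ to 3′ on the plus strand, and each covers the 250 bases before the gene's start. Capitals mark the core of the metal response element, searched as TGCACNC and TGCGCNC on both strands, so that a match on the reverse strand reads as its reverse complement.
Mt1, chr8:94178839-94179088: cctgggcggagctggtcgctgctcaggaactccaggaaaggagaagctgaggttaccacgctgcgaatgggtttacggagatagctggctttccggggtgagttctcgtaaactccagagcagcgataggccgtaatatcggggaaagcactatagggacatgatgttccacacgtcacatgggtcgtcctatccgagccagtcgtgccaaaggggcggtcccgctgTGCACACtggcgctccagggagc
Mt2, chr8:94172368-94172617: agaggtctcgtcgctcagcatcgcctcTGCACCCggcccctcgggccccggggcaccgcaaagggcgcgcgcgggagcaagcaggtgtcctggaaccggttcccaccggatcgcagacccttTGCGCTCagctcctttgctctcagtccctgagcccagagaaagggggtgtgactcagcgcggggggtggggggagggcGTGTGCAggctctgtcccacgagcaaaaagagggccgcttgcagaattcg
Mt4, chr8:94136954-94137203: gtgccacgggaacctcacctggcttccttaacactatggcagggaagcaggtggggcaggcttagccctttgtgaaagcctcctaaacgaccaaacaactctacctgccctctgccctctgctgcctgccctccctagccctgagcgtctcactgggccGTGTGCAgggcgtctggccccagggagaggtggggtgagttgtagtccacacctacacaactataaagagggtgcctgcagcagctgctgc
Slc30a1, chr1:191906531-191906780: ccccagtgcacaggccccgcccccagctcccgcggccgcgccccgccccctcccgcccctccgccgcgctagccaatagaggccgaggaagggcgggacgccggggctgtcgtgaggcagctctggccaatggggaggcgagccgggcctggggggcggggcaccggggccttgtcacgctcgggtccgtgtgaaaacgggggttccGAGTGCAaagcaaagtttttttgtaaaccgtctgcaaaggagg
The first 30 bases from the annotated start are added for Mt1 and Mt2, which hold further matches there.
Mt1, chr8:94179089-94179118: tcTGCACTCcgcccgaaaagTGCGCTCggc
Mt2, chr8:94172618-94172647: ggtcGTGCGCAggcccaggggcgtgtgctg

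Counted over 300 bases, from 250 before the start to 50 after it, Mt2 held 4 matches, Mt1 and Slc30a10 3 each, Slc30a1 2, and Mt4 and its neighbour Mt3 1 each. In Slc30a10 a forward and a reverse match overlapped. Of 32851 RefSeq windows of the same length, 25.7% held at least 1 match, 7.11% at least 2, 1.969% at least 3 and 0.517% at least 4. RefSeq windows were matched for 5 of the 7 genes, with Slc39a4 and Slc39a14 not matched. A match is a string of letters in this window and was not tested for binding or for a part in the levels. The starts are the annotated ones, and where transcription begins in these cells was not examined. Elements outside a window are not counted, so the counts may miss promoter elements and cannot be ranked between genes.

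The metallothionein genes parted over the culture. Mt4 fell at day 14 against day 1, while Mt1 and Mt2 stayed within a narrow band on every array. At day 1 Mt4 stood at 10.35 in male 1, 10.69 in male 2, 10.83 in female 1 and 10.29 in female 2. At day 7 it stood at 9.48, 9.96, 10.11 and 9.20 in the same order of preparations. At day 14 it stood at 7.80, 7.64, 8.72 and 7.64. No array of a later day reached the lowest array of an earlier one, so the order of the days was the same in all 4 preparations and the days did not overlap. Mt4 averaged 7.95 ± 0.52 at day 14 and 10.54 ± 0.26 at day 1 (SD, n = 4), and was 6.02-fold lower at day 14 (change -2.59 ± 0.28, SE, limma adjusted p = 0.000976). Female 1 had the highest level at each day and was the only preparation above 8 at day 14.

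The fall of Mt4 was larger in the second week than in the first in 4 of 4 preparations. From day 1 to day 7 the change was -0.86 in male 1, -0.72 in male 2, -0.72 in female 1 and -1.09 in female 2. From day 7 to day 14 it was -1.68, -2.32, -1.39 and -1.56. Both weekly changes were thus below 0 in every preparation, with the largest first-week fall in female 2 and the largest second-week fall in male 2. In the fit, day 7 against day 1 gave -0.85 ± 0.28 (adjusted p = 0.141), which passed at 0.0212 with the preparation as a replicate block. Day 14 against day 7 gave -1.74 ± 0.28 (adjusted p = 0.0453). That second-week call was lost whichever preparation was left out (adjusted p = 0.315 without male 1, 0.307 without male 2, 0.063 without female 1 and 0.0739 without female 2). The change from day 1 to day 14 passed in each of these fits, with a highest adjusted p of 0.0358.

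**Figure D1:**
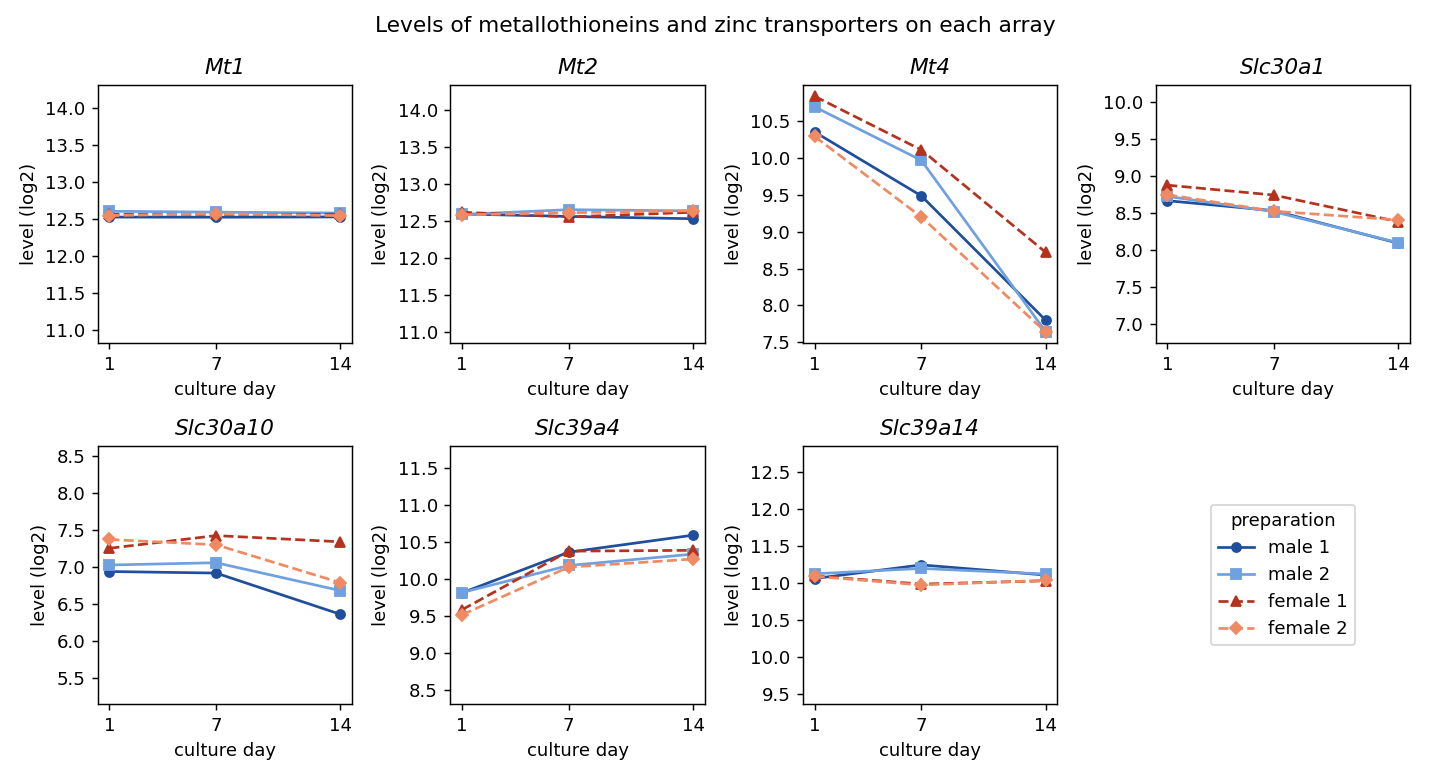
Deposited log2 level (vertical axis) of the 7 genes at culture days 1, 7 and 14 (horizontal axis), one line per preparation, with the same span of log2 units in every panel. Mt4 falls to 7.64 to 8.72 at day 14, against 10.29 to 10.83 at day 1, Slc39a4 climbs mostly by day 7, and Mt1, Mt2 and Slc39a14 run flat.

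Mt1 stood between 12.52 and 12.60 on all 12 arrays and Mt2 between 12.53 and 12.65. Over the 4 preparations Mt1 averaged 12.56 ± 0.034 on day 1, 12.56 ± 0.029 on day 7 and 12.55 ± 0.023 on day 14 (SD). Mt2 averaged 12.59 ± 0.016, 12.59 ± 0.046 and 12.60 ± 0.051 at the same days. The days overlapped fully for both genes. The whole range of Mt1 was 0.0807 and that of Mt2 0.123, against a median range of 0.574 over all genes, and 0.0422% and 0.236% of genes had a smaller range than these 2. For day 14 against day 1 the 95% interval of the change ran from -0.12 to 0.11 for Mt1 (adjusted p = 0.96) and from -0.12 to 0.14 for Mt2 (adjusted p = 0.935).

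The mean levels of Mt1 and Mt2 lie 0.284 and 0.245 below the highest value in the table, 12.84, a region in which array signals are compressed. The 44 genes above 12 on every array had a median range of 0.171, and 2 of them (4.55%) were called at day 14 against day 1, with a largest change of 0.258. Picking genes that stayed above 12 itself limits their range, and Mt1 and Mt2 are among them. These values therefore do not show how far signals are compressed. A narrow band on this scale bounds the array reading and may hide a change in the RNA.

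Mt3 lies between Mt4 and Mt2 on chromosome 8 and was read lower with culture time. The average was 10.02 ± 0.205 on day 1, 9.49 ± 0.365 on day 7 and 8.84 ± 0.368 on day 14 (SD over 4 preparations). By preparation the change at day 14 against day 1 was -1.25 in male 1, -1.52 in male 2, -0.72 in female 1 and -1.22 in female 2, and the arrays of the 2 days did not overlap. The fit gave -1.18 ± 0.22 (adjusted p = 0.00865), lost without male 1 (adjusted p = 0.108) or without male 2 (0.13). Neither week passed for Mt3 (adjusted p = 0.221 and 0.229), and both did with the replicate block (0.0356 and 0.0482). Across the 12 arrays Mt3 and Mt4 had r = 0.952, and Mt1 and Mt2 had r = 0.525, as descriptions of arrays that share preparations and days. Metallothionein genes have near-identical stretches and the probe sequences were not analysed, so whether the Mt3 and Mt4 probe sets read only their own gene is uncertain.

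The 5 genes on either side of the metallothionein cluster were looked at after these values were seen. Of the 10, 7 were measured, and their changes at day 14 against day 1 ran from -0.20 to 0.14. By limma 0 of the 7 passed and 0 had an unadjusted p under 0.05, where 14.4% and 28.6% of all genes did, so a count of 0 among 7 says little.

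Among the transporters that carry metal out of the cytosol, Slc30a1, the zinc exporter of the plasma membrane, fell. At day 1 it stood at 8.66 in male 1, 8.72 in male 2, 8.87 in female 1 and 8.75 in female 2. At day 7 it stood at 8.53, 8.52, 8.74 and 8.52, and at day 14 at 8.09, 8.10, 8.38 and 8.40. Day 14 lay below day 7 and below day 1 on every array, while days 1 and 7 overlapped through female 1. It averaged 8.24 ± 0.17 at day 14 and 8.75 ± 0.089 at day 1 (SD, n = 4), 1.42-fold lower at day 14 (-0.51 ± 0.07, adjusted p = 0.00185). This call was lost without male 1 (adjusted p = 0.0549) or without male 2 (0.0554), with the change at -0.52 and -0.50. Day 14 against day 7 gave -0.34 ± 0.07 (adjusted p = 0.0751) and day 7 against day 1 gave -0.18 ± 0.07 (adjusted p = 0.19), so neither week passed alone.

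Slc30a10, which exports manganese and whose loss in people raises manganese in blood and liver, was lowest at day 14 in 3 of the 4 preparations. Male 1 stood at 6.94, 6.92 and 6.36 at days 1, 7 and 14, and male 2 at 7.03, 7.06 and 6.68. Female 1 stood at 7.25, 7.42 and 7.34, and female 2 at 7.37, 7.30 and 6.79. The males and female 2 were thus lower after the second week, whereas female 1 at day 14 stayed within the range of day 1. The change at day 14 against day 1 was -0.36 ± 0.13 and did not pass (adjusted p = 0.0991), nor did day 14 against day 7 (-0.38 ± 0.13, adjusted p = 0.221). At day 7 against day 1 it was 0.03 ± 0.13, with a 95% interval from -0.26 to 0.32.

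Of the 10 ZnT genes listed, 8 were measured, and 0 rose and 2 fell at day 14 against day 1 by limma, where 6.8% of all genes fell. With 1 preparation left out the count was 0 to 1. Beside Slc30a1, the second was Slc30a9, which in human cells is tied to zinc in mitochondria. It averaged 7.99 ± 0.048 at day 14 and 8.31 ± 0.065 at day 1 (change -0.32 ± 0.06, adjusted p = 0.00854), and the arrays of these days did not overlap. The call was lost whichever preparation was left out (adjusted p from 0.0545 to 0.119). The remaining 6 ran from -0.36 for Slc30a10 to 0.26 for Slc30a3, with Slc30a5 at -0.20 (adjusted p = 0.0539) and Slc30a6 at 0.24 (0.088). Slc30a3 averaged 4.78 at day 1, just below the 4.79 that every probe set reached at least once. It reached 4.79 on 8 of the 12 arrays, so the size of its change is not known.

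Among the importers Slc39a4 rose. This is the zinc uptake transporter of the intestine, whose loss causes the zinc deficiency disease acrodermatitis enteropathica. At day 1 it stood at 9.81 in male 1, 9.81 in male 2, 9.58 in female 1 and 9.51 in female 2. At day 7 it stood at 10.36, 10.18, 10.37 and 10.16, and at day 14 at 10.59, 10.33, 10.38 and 10.27. Every array of days 7 and 14 lay above every array of day 1, while days 7 and 14 overlapped. It averaged 10.39 ± 0.14 at day 14 and 9.68 ± 0.155 at day 1 (SD, n = 4), 1.64-fold higher at day 14 (0.71 ± 0.08, adjusted p = 0.00134). This call held with any 1 preparation left out, at a highest adjusted p of 0.033.

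The rise of Slc39a4 belonged mostly to the first week. By day 7 it had risen by 0.55 in male 1, 0.37 in male 2, 0.79 in female 1 and 0.64 in female 2. From day 7 to day 14 the changes were 0.23, 0.15, 0.01 and 0.11, smaller in 4 of 4 preparations. Day 7 against day 1 gave 0.59 ± 0.08 (adjusted p = 0.00936), lost whichever preparation was left out (adjusted p = 0.125 without male 1, 0.0781 without male 2, 0.0894 without female 1 and 0.0778 without female 2). Day 14 against day 7 gave 0.13 ± 0.08 (adjusted p = 0.573), with a 95% interval from -0.07 to 0.32.

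Slc39a14, which carries zinc, manganese and iron into hepatocytes, showed no change between days that passed. Its mean was 11.10 ± 0.026 on day 1, 11.10 ± 0.14 on day 7 and 11.08 ± 0.047 on day 14 (SD over 4 preparations). The days overlapped, and its range over the 12 arrays was 0.272. Day 14 against day 1 gave -0.02 ± 0.05 (adjusted p = 0.847), with a 95% interval from -0.13 to 0.09.

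Of the 14 ZIP genes listed, 11 were measured, and 2 rose and 0 fell at day 14 against day 1. Of all genes 14.4% were called there, 7.59% higher and 6.8% lower, and a count of 2 among 11 says little. Beside Slc39a4, the second was Slc39a10, a zinc importer of the plasma membrane. At day 1 it stood at 5.54, 5.55, 5.57 and 5.79 in male 1, male 2, female 1 and female 2, at day 7 at 5.93, 6.27, 5.78 and 6.14, and at day 14 at 6.64, 6.69, 6.06 and 6.19. It averaged 6.39 ± 0.315 at day 14 and 5.61 ± 0.12 at day 1, 1.72-fold higher at day 14 (0.78 ± 0.11, adjusted p = 0.0026), and this call held with any 1 preparation left out (highest adjusted p = 0.0444). The change was 1.10 and 1.14 in the males and 0.48 and 0.40 in the females. In the first week it was 0.42 ± 0.11 (adjusted p = 0.0702, and 0.0376 with the replicate block). The remaining 9 ZIP genes, among them Slc39a8, which also carries zinc and manganese, ran from -0.17 for Slc39a13 to 0.16 for Slc39a8.

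**Figure D2:**
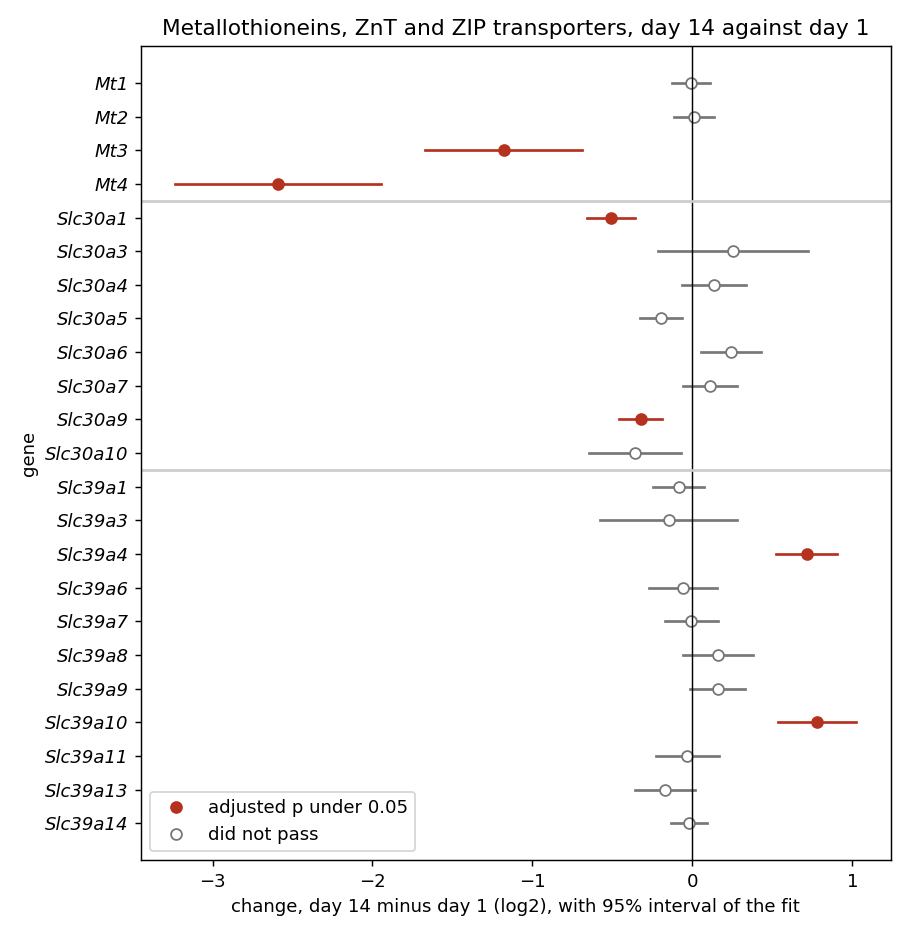
Change at day 14 minus day 1 in log2 units (horizontal axis) for the measured metallothionein, ZnT and ZIP genes (vertical axis), with the 95% interval of the limma fit and filled points where the adjusted p was under 0.05. Mt4 at -2.59 and Mt3 at -1.18 lie farthest left, Slc39a10 at 0.78 and Slc39a4 at 0.71 farthest right, and most transporters lie near 0.

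Over the 7 genes, 1 rose and 2 fell at day 14 against day 1 (Slc39a4 up, Mt4 and Slc30a1 down), where 14.4% of all genes were called, 7.59% higher and 6.8% lower. The arrays of these 2 days did not overlap for the same 3 genes, as for 15.8% of all genes. The median change of the 7 was -0.02 and that of all genes 0.01. At day 7 against day 1, 1 of the 7 was called, Slc39a4, where 4.72% of all genes were called, 2.74% higher and 1.98% lower, and 2 genes were called with the replicate block. The days did not overlap for Slc39a4 and Mt4 there, as for 10.4% of all genes. At day 14 against day 7, 1 of the 7 was called, Mt4, where 0.489% of all genes were called, 0.304% higher and 0.185% lower. The days did not overlap for Mt4 and Slc30a1 there, as for 5.21% of all genes.

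**Figure D3:**
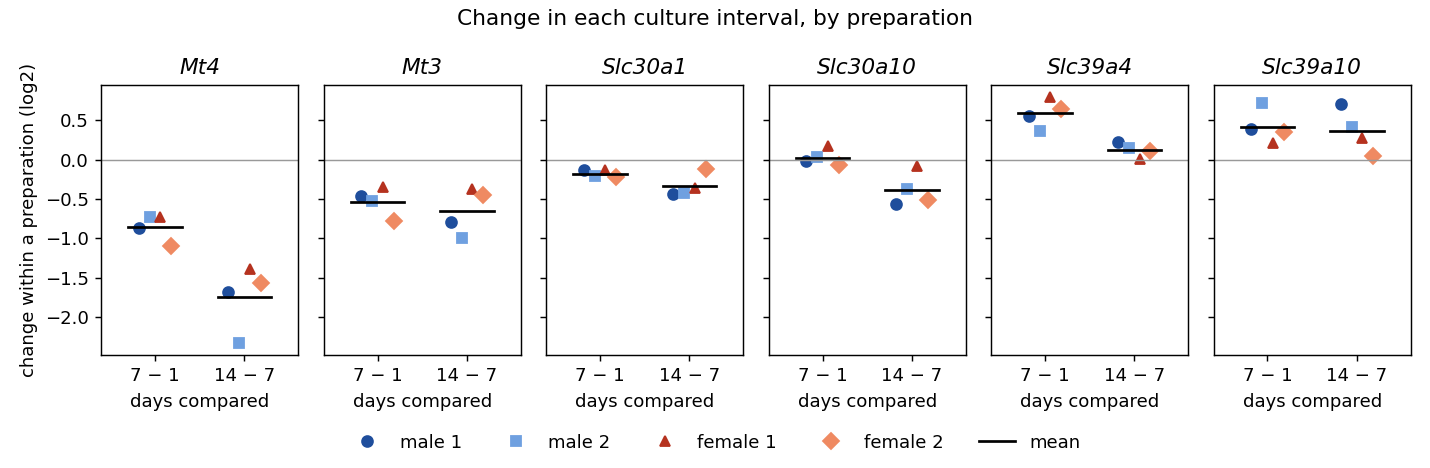
Change within each preparation in log2 units (vertical axis) from day 1 to 7 and from day 7 to 14 (horizontal axis) for 6 genes, with a bar at the mean. Mt4 drops by more in the second interval in all 4 preparations (mean -1.74 against -0.85), and Slc39a4 rises in the first (mean 0.59) and little in the second (0.13).

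The sexes were compared as male minus female, with 2 pools on each side. Slc30a10 was lower in both males than in both females at each of the 3 days. Its means over the days were 6.74 in male 1 and 6.92 in male 2, against 7.34 in female 1 and 7.15 in female 2. Over all days the difference was -0.42 ± 0.10 (adjusted p = 0.151), and with a trended and robust prior of the spread it passed at 0.0299. By day it was -0.33 at day 1, -0.38 at day 7 and -0.54 at day 14 (adjusted p = 0.475, 0.413 and 0.205). All 10 stellate cell markers and all 5 measured endothelial markers also lay below 0 in males against females over all days, with a median of -0.72 and -0.91. The stellate median was -0.10 at day 1, -0.51 at day 7 and -2.07 at day 14, and the endothelial median -0.40, -0.92 and -1.31. Of 10 measured macrophage markers 9 lay below 0 over all days (median -0.23) and all 10 at day 14 (median -0.57). Of 8 hepatocyte markers 6 lay below 0 over all days (median -0.04, lowest -2.08) and all 8 at day 14 (median -0.08, lowest -2.56). Of 5 measured cholangiocyte and progenitor markers 3 lay above 0 over all days. By limma 0 of these markers passed at any day or over all days. At day 14, 7 of the 10 stellate and 2 of the 5 endothelial markers had an unadjusted p under 0.05. So did 2 of the 8 hepatocyte, 1 of the 5 cholangiocyte and progenitor and 0 of the 10 macrophage markers, and 14.9% of all genes. Day 14 was also the day on which Slc30a10 and Slc30a1 differed most between the sexes, and the part of these markers in those differences was not tested.

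Among the other members the sexes parted at some days without passing. With 2 pools on each side levels part often by chance, and the share of all genes that parted was not counted. Such partings, that of Slc30a10 included, are thus no result about these genes. Slc30a1 was lower in males at day 14, at 8.09 and 8.10 in males against 8.38 and 8.40 in females (-0.30 ± 0.09, adjusted p = 0.18), and was also lower in both males at day 1. Slc39a14 was higher in males at day 7, at 11.25 and 11.20 in males against 10.99 and 10.98 in females (0.24 ± 0.07, adjusted p = 0.21, and 0.0337 with the trended and robust prior). It was again higher in both males at day 14, by 0.08. Slc39a4 was higher in males at day 1, at 9.81 and 9.81 in males against 9.58 and 9.51 in females (0.26 ± 0.12, adjusted p = 0.381). Mt1, Mt2 and Mt4 overlapped between the sexes at each day.

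By limma 0 of the 7 genes passed between the sexes, over all days (where 0.177% of all genes were called) or at day 1, 7 or 14 (0.767%, 0.354% and 1.06%). At an unadjusted p under 0.05 the counts were 1 over all days and 0, 1 and 2 at the 3 days, where 19.8%, 13.5%, 13.2% and 14.9% of all genes lay under it, so the counts are no result about the 7 genes. For the sex difference in the change 0% of all genes passed in the 3 day comparisons, and 1, 0 and 0 of the 7 had an unadjusted p under 0.05 for day 7 against day 1, day 14 against day 7 and day 14 against day 1, as did 4.76%, 4.09% and 6.87% of all genes. Mt4 fell by 2.80 in males and by 2.38 in females at day 14 against day 1, a difference of -0.42 ± 0.57 (adjusted p = 0.97) with a 95% interval from -1.70 to 0.87.

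Other gene lists that bear on metallothionein control were read at day 14 against day 1, beside the 14.4% of all genes called. Of 5 genes tied to metal and oxidant responses, 1 rose, Slc7a11, the cystine importer (0.67 ± 0.10, adjusted p = 0.00388, lost at 0.0767 without male 1 and at 0.0544 without male 2). Mtf1, the factor itself, was at 8.76 at day 14 and 8.97 at day 1 (-0.21 ± 0.08, adjusted p = 0.138), and Hmox1, heme oxygenase 1, at 0.09 ± 0.10. Of 10 genes in the glucocorticoid list, mostly targets but also the receptor gene Nr3c1, 0 rose and 5 fell. Among those 5 were Tsc22d3 (-0.66 ± 0.14), an anti-inflammatory leucine zipper gene, the kinase gene Sgk1 (-0.58 ± 0.07) and the phosphatase gene Dusp1 (-0.36 ± 0.09). With 1 preparation left out 1 to 2 of these 5 passed. Sgk1 passed in each of those fits, Tsc22d3 only in the one without male 2, and Dusp1 in none (adjusted p from 0.062 to 0.22). Of 16 genes in the interleukin 6 and STAT3 list, which also holds Stat3 and the receptor genes Il6ra and Il6st, 3 rose and 0 fell. These 3 were the serum amyloid genes Saa2 (2.47 ± 0.43) and Saa1 (1.93 ± 0.32), and Orm1, an acute phase protein (0.32 ± 0.08). Without male 1 or without male 2 none of the 3 passed (adjusted p for Saa2 0.0942 and 0.105), and Orm1 lost its call whichever preparation was left out (0.0744 to 0.231). In the interleukin 6 list, Fga, Fgb, Fgg, Hp, Hpx and Lcn2 averaged above 12 at both days, near the top of the scale, where a change may be hidden. The part of these lists in the metallothionein levels was not tested.

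Of 11 measured copper genes, 0 passed and 4 had an unadjusted p under 0.05 by limma, near the 28.6% of all genes under it, and the largest change was that of Slc31a1, the copper importer (0.28 ± 0.08, adjusted p = 0.0516). Of 7 other manganese and divalent metal transport genes, 2 rose and 3 fell, but 0 passed without male 2 and 1 without male 1. Slc11a1, a divalent metal transporter of macrophages, rose by 0.71 ± 0.09, while Steap3, a ferrireductase, fell by 0.64 on the log2 scale and Slc40a1, the iron exporter ferroportin, by 0.61.

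Some markers of other cell types changed at day 14 against day 1, where 14.4% of all genes were called. Of 10 stellate cell and fibroblast markers 7 fell (4 to 7 with 1 preparation left out), with a mean level per array of 4.38 to 6.75 at day 14 and 7.24 to 7.43 at day 1. The median change of the stellate list was -2.66 in males and -0.75 in females, a difference in which 0 markers passed and 5 had an unadjusted p under 0.05. Of 5 measured endothelial markers 3 fell (1 to 3 with 1 left out), with a mean level of 3.61 to 5.14 at day 14 and 5.04 to 6.18 at day 1. Of 5 measured markers of stratified squamous epithelium, the tissue known for Mt4, 3 fell: Ivl, Sprr1a and Sprr1b (1 without male 1 and 2 without male 2). Sprr1a stood at 6.95 at day 14 and 9.04 at day 1 (-2.10 ± 0.35). Ivl stood at 4.48 at day 14 and 8.90 at day 1, and Sprr1b at 2.72 and 4.36. Of these means, that of Ivl at day 14 and both of Sprr1b lie below the 4.79 that every probe set in the table reached at least once, so the size of those changes is not known. The keratins Krt14 and Krt10, which define that tissue, stood at 4.40 and 4.39 at day 14 and at 4.31 and 4.39 at day 1, also below that level. The mean level of the squamous list was 4.27 to 5.10 at day 14 and 5.98 to 6.43 at day 1. Among the stellate and endothelial markers that fell, the day 14 means of Lrat (4.32), Rgs5 (4.46), Cdh5 (3.39) and Kdr (3.54) also lie below 4.79. The size of their falls, and of their sex differences at day 14, is thus not known either. In a mixed RNA sample fewer cells of a type and less RNA per cell cannot be told apart, and the part of these markers in the fall of Mt4, Mt3 and Slc30a1 was not tested.

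Of 5 measured cholangiocyte and progenitor markers 3 rose at day 14 against day 1, Krt19, Epcam and Cldn7 (2 without male 1 or without male 2), whose day 1 means of 4.39, 3.43 and 3.51 lie below 4.79. The other 2, Krt7 at -0.56 ± 0.22 (adjusted p = 0.134) and Sox9 at -0.22 ± 0.10 (0.201), went down without passing. The list had a mean level of 6.83 to 7.38 at day 14 and 5.88 to 6.38 at day 1. Of 10 measured macrophage markers 1 rose, Csf1r, at 5.78 at day 14 and 4.57 at day 1. This call was lost whichever preparation was left out. The day 1 mean of Csf1r also lies below 4.79, as do those of Adgre1, Clec4f, C1qc and Marco. Of the 10 markers 9 lay above 0, with a median change of 1.07, and how many passed depended on which preparation was left out. The list had a mean level of 5.10 to 7.19 at day 14 and 4.09 to 5.39 at day 1. Of 4 measured enterocyte markers, Fabp2 (0.82 ± 0.14) and Lgals4 (0.65 ± 0.11) rose and Apoa4, which hepatocytes also make, fell by 0.59. Of these 3 calls, 2 remained without male 1, 0 without male 2, and 1 when female 1 or female 2 was left out. Vil1 was at 0.62 ± 0.18 (adjusted p = 0.0545). The part of these genes in the rise of Slc39a4 was not tested. Of the 8 hepatocyte markers 0 passed and 1, Hnf4a at -0.15 ± 0.06, had an unadjusted p under 0.05 by limma. Alb, Apoa1, Serpina1a and Ttr averaged above 12 at both days, near the top of the scale, where a change may be hidden. Cyp2e1 averaged 4.41 at day 14, below 4.79.

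The genes whose level followed each member most closely over the 12 arrays were found by Pearson's r among 6743 genes that ranged over at least 0.5. The arrays share preparations and days, so these values are descriptions. For Mt4 they were Phgdh, of serine synthesis (r = 0.967), Nfyb (0.955) and Mt3 (0.952). For Slc30a1 they were Ugdh (0.962), Hprt (0.955) and Nrn1 (0.954), and for Slc30a10 Rgs16 (0.985), Shpk (0.965) and Mast3 (0.964). For Slc39a4 they were Uap1l1 (0.963), Marcks (0.955) and Idh2 (0.954). For the members with a narrow range the highest values were lower: 0.826 with Gtf2a2 for Mt1, 0.83 with Zfp105 for Mt2 and 0.85 with Triap1 for Slc39a14. Among the members themselves, Mt4 and Slc30a1 had the highest r (0.919), and Slc39a4 had r = -0.735 with Mt4 and -0.757 with Slc30a1.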

How the data were processed

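The deposited values are on the log2 scale, 1 per probe set and array, and the submitters' processing notes list Partek 7.0, Transcriptome Analysis Console 4.0 and RMA with no roles. Per the labels' protocols, cDNA was made with the GeneChip WT PLUS kit. Filter settings and annotation release were not given in the sources read. Each of the 13081 probe sets reached 4.79 on at least 1 array, so low ones had been removed before deposit, and all 7 genes exceeded that level on all 12 arrays. A single symbol was given for 11889 probe sets and none for 1192. Their gene numbers were all found in a RefSeq gene list, and 0 symbols changed. Where probe sets shared a symbol (19 symbols) the brightest on average was kept, leaving 11861 genes. Scanner files were not used, and 0 sample columns were unused.

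Differences were tested with limma 3.58.1 (R 4.3.3, data.table release 1.17.8), by fitting 6 group means to all 12 arrays (functions lmFit, contrasts.fit and eBayes). A day comparison is the change averaged over the sexes. The comparison of the sexes over all days used 1 averaged profile per preparation. Tests were two-sided, and a gene was called if its p, adjusted by Benjamini-Hochberg across the 11861 genes, was under 0.05. A ± on a change is the model's standard error and on a level the SD. P-values reflect the spread between pools of mice, and precision is limited by the 4 pools, 2 per sex (median standard error of a day comparison 0.0946). The main fit treats the 12 arrays as independent, although each pool was sampled on 3 days. The tests were tried on simulated data.

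The donor number within a sex names the same pool on each day, per the labels, so numbers pair the samples. Deviations of same-pool arrays from their group means correlated at 0.0359 to 0.324. The fit with the pool as a replicate block is an alternative. The others were a random block, a trended and robust prior, 2 other scalings, a filter on dim genes, the mean of a symbol's probe sets, leaving out the day 14 array of male 1, and leaving out each preparation.

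The members and the lists were chosen with earlier results of these data known. The members were always named, and every measured metallothionein, ZnT and ZIP gene was named or counted. Of the other lists of controls and metals up to 3 genes were named, picked by size of change from those past the threshold, and a single gene in lists without any, and Mtf1, Hmox1, the cell type markers and the genes beside the cluster were named after their values were seen. For each member the 3 genes of most like pattern were found, leaving out predicted and clone-named genes.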

Additional observations from a re-analysis of the deposited data

Results flagged for a closer look

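In 2 of the 21 sets of 4 arrays of a day, 1 array stood apart from the other 3 by Dixon's test, which chance does in about 1 of 20 sets. Mt4 in female 1 at day 14 was 8.72, against 7.64 to 7.80 in the other preparations (gap over range 0.852). Slc30a1 in female 1 at day 7 was 8.74, against 8.52 to 8.53 (0.937).

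Over the 7 genes and 3 day comparisons, the sexes moved in opposite directions, with both pools of each sex alike, in 3 cases. Chance gives such cases often with 4 pools, and the share over all genes was not counted, so the count is no result. Slc39a14 rose in both male pools and dropped in both female pools from day 1 to day 7, a difference in the change of 0.24 (limma adjusted p = 0.99). From day 7 to day 14 it moved back in both sexes, with a difference of -0.16 (adjusted p = 0.999). Mt2 from day 7 to day 14 was lower in both male pools and higher in both female pools, with a difference of -0.0695 (adjusted p = 0.999). None of the 3 passed.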

How the results depend on the processing

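The changes of Mt4 and Slc39a4 at day 14 against day 1 passed in each of the 12 alternatives, and no called change of the 7 genes turned its direction. Of 784 values of the 7 genes under the alternatives, 767 kept their side of the threshold, 12 lost the call and 5 gained it. The 767 include 66 that had not passed and changed sign (largest size 0.382). The other scalings moved the median of all genes by less than 0.1. At day 7 against day 1, where 560 genes and 1 member were called, the replicate block gave 2 members, the trended and robust prior 956 genes, and leaving out a preparation 40 to 75 genes and 0 members. At day 14 against day 7, with 58 genes and 1 member, the replicate block gave 101 genes, the trended prior 309, the filter on dim genes 96, the fit without the day 14 array of male 1 gave 9 genes and 0 members, and leaving out a preparation 0 to 8 genes and 0 members. The pairing by replicate block took Mt4 there to an adjusted p of 0.00816, the fit without the day 14 array of male 1 to 0.131 and the trended prior to 0.0551. At day 14 against day 1, with 1706 genes, leaving out a preparation gave 494 to 826 genes and 2 to 3 members. The trended prior took Slc30a10 there to an adjusted p of 0.0482, and Slc30a1 at day 14 against day 7 to 0.0136. For male against female, the trended prior gave 292 genes against 91 at day 1, 178 against 42 with 1 member at day 7, 411 against 126 at day 14, and 974 against 21 with 1 member over all days, where the filter on dim genes gave 58. Leaving out a preparation gave 3 to 21 genes at day 1, 4 to 18 at day 7, 11 to 113 at day 14 and 3 to 26 over all days, and the fit without the day 14 array of male 1 gave 8 at day 14. For the sex difference in the change at day 14 against day 1, with 0 genes, the replicate block gave 1, the trended prior 14 and leaving out a preparation 0 to 17, and at day 14 against day 7 leaving out a preparation gave 0 to 1. Fits without a preparation have fewer arrays, and the cause of the other shifts was not tested. The replicate block changed no other call of a member. The random block had a correlation of 0.038. Levels near the top of the scale limit what Mt1 and Mt2 can show.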
